A study of Homo sapiens with 36 samples.

Results

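The genes described here are 47 genes of DNA replication and mitosis, followed in human acute myeloid leukaemia (AML) cells given the degrader A9 or its solvent. They were taken from a named list of cell cycle genes, and the transcript values of each were summed under its gene symbol, out of 35472 symbols in all. The list holds 24 S-phase genes, which prepare and carry out DNA synthesis, and 23 mitotic genes, which drive chromosome segregation and division. MOLM-13 and MONO-MAC-6 are established AML lines of monocytic type. Both are labelled wild type and were grown in the same serum-containing RPMI medium. A9 is a PROTAC, a compound that brings its target protein to the cell's ubiquitin machinery so that the protein is destroyed. The design text names IKK2 and NR4A1 as the targets, whereas the title names IKK1 in place of IKK2. MOLM-13 received 0.125 µM and MONO-MAC-6 0.25 µM, both for 72 h, and the controls of each line received DMSO for the same time. Each of the 4 groups has 9 libraries with a pair of numbers each, and libraries with the same first number were averaged to 3 samples. The labels do not say which number marks the culture, and averaging by the second number instead changes the results, as given in the closing section. Nothing in the labels says that the 3 samples came from separate cultures, so the p-values measure the spread between these samples, which may be technical.

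A dividing cell licenses its replication origins in G1 by loading the MCM helicase with the help of CDC6 and CDT1. Cyclin D, cyclin E and their kinases then release the E2F transcription factors, which switch on the genes for DNA synthesis and nucleotide supply. Later, the B-type cyclins with CDK1, the Aurora and Polo kinases, the spindle motors and the kinetochore proteins carry the cell through mitosis. Many genes of that later wave are read from promoters with CCAAT boxes and a cell cycle homology region (CHR), which the DREAM and MuvB complexes bind. AML cell lines divide continuously in culture, and RNA of these genes is usually abundant in them. In bulk RNA, fewer cycling cells and less RNA per cell cannot be told apart.

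The promoters show how the S-phase and mitotic genes differ in sequence before any value is considered. Of the 47 genes, 38 matched an entry in the RefSeq promoter table (GRCh38.p14). For 35 of these, the start lies at or near a GENCODE 29 transcript start of the gene on the same strand. The match allowed an offset and any transcript of the gene, so the starts need not coincide. The genes not matched were CCNE2, CCND2, CDK2, MCM4, MCM5, AURKA, UBE2C, BIRC5 and TPX2. In the 250 bases before each start, on both strands, 3 kinds of motif were searched. These were CCAAT, the CHR letters TTTGAA or TTCGAA, and the E2F-site letters GCGGGAA, GGCGCGAA or TTGGCGC. The last 2 of these overlap where they occur as 1 stretch, and then both are counted. E2F letters stood in 12 of 19 S-phase promoters (63.2%) and in 4 of 19 mitotic promoters (21.1%), beside 8.5% of the 35116 promoters in the table. CHR letters stood in 2 of 19 S-phase promoters (10.5%) and in 10 of 19 mitotic promoters (52.6%), beside 14.3% of all. CCAAT stood in 13 of 19 (68.4%) and 16 of 19 (84.2%), beside 32.0% of all. These are letter matches in a fixed window, not measured binding sites. Each of the 38 genes was searched in its first listed entry only. The shares of all count every entry, so a gene with several entries can count more than once there. CCND3 (cyclin D3) had the largest called change of the 47 genes, and the entry searched for it (chr6:42048639-42048938) held none of these letters. That entry lies near the upstream end of a long gene. Whether the main CCND3 transcript starts there was not checked, so its own promoter may not have been searched. The following 4 are shown because they belong to genes whose values are given in full and hold the motifs of each wave. Each runs 5′ to 3′ on the gene's own strand, and capitals mark a motif match on either strand. TYMS lies at chr18:657403-657652 (plus strand), MCM6 at chr2:135876444-135876693 (minus strand), MKI67 at chr10:128126424-128126673 (minus strand) and TOP2A at chr17:40417897-40418146 (minus strand).
TYMS: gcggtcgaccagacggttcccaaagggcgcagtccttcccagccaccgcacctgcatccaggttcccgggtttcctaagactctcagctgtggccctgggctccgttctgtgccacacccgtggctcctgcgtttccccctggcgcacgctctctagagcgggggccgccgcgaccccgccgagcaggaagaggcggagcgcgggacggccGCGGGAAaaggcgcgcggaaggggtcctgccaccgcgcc
MCM6: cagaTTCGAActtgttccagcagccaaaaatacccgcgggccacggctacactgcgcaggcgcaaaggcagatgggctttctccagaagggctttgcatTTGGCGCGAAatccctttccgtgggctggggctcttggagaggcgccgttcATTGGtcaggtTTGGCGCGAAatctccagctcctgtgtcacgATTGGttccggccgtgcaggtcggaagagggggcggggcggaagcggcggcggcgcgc
MKI67: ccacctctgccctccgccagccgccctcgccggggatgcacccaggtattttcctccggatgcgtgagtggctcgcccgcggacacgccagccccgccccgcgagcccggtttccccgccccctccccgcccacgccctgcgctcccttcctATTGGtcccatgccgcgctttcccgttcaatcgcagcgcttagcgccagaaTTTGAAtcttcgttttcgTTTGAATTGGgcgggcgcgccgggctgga
TOP2A: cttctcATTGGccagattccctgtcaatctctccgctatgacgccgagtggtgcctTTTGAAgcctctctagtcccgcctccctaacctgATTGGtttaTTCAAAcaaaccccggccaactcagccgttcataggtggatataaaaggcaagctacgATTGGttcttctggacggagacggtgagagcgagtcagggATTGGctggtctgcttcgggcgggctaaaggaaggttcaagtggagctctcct

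In TYMS the capitals are 1 E2F match and there is no CCAAT. MCM6 holds 2 stretches in which both longer E2F forms overlap, 2 CCAAT boxes in reverse (ATTGG) and 1 CHR match. MKI67 and TOP2A hold 2 CHR matches each with no E2F match. In MKI67 the CHR nearest the start shares 1 letter with a reversed CCAAT box, so both stand in 1 run of capitals. TOP2A has 4 CCAAT boxes, all in reverse.

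Values are TPM, a measure of transcript abundance that allows for transcript length and gives every library the same sum. The labels name a target number of reads per sample, but TPM keep no counts, so the depth reached is unknown and no counting interval can be given. Libraries of 1 sample lay close together for these genes, with a median SD on the log2(TPM + 1) scale of 0.047 (MOLM-13) and 0.0496 (MONO-MAC-6). Differences between groups were tested with limma on that scale, and "called" below means a Benjamini-Hochberg adjusted p under 0.05 over all genes tested. A log2 fold change of this kind understates the change of genes of low TPM. The cells carried the marks of their labels: the summed level of 10 AML and monocyte markers was 507 to 610 TPM with DMSO and 695 to 838 TPM with A9 in MOLM-13. In MONO-MAC-6 it was 3970 to 4897 TPM with DMSO and 8848 to 9106 TPM with A9. CD14 was under 1 TPM in MOLM-13, and CSF1R was in MONO-MAC-6 and in the DMSO samples of MOLM-13. CD3E, MS4A1 and HBB, of T cells, B cells and red cells, were listed at 0 in every sample. The summed level of the 7 T and B cell markers was 31.6 to 51.7 TPM over the MOLM-13 samples and 8.25 to 11.4 TPM over those of MONO-MAC-6. In the MOLM-13 A9 samples 6 of these 7, all but CD4, were under 1 TPM, and in each other group 5 were. For 7 epithelial, fibroblast and erythroid markers the sum was 6.17 to 6.59 TPM with DMSO and 3.69 to 4.07 TPM with A9 in MOLM-13, and 14.3 to 16.6 TPM and 9.33 to 9.95 TPM in MONO-MAC-6, where KRT18 was called lower. Of the monocyte markers, LYZ was called higher in MOLM-13, and CD14, CD68, LYZ and SPI1 in MONO-MAC-6. The part of these shifts in the results on cell cycle genes was not tested.

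The first question was whether A9 changed these genes in MOLM-13. All 47 were tested and 0 were called, where 0.121% of all genes were called (14 of 11596) and 0.0345% were called lower. At an unadjusted p under 0.05 there were 2 (4.26%), CCND3 and MCM6, beside 7.89% of all genes. The estimates lay mostly below 0, in 40 of 47 genes (85.1%), beside 61.2% of all genes tested. Their median log2 fold change was -0.15, beside -0.046 for all genes. For the S-phase genes it was -0.19, with 22 of 24 below 0, and for the mitotic genes it was -0.088, with 18 of 23 below 0. All 3 A9 samples were below all 3 DMSO samples for 5 of the 47 genes (CCNE1, CCND3, CDK2, MCM6 and BIRC5), where 6.42% of all genes showed this. In the opposite direction the count was 0, where it was 8.59% of all genes.

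In MONO-MAC-6, 46 of the 47 genes passed the filter on low values. CCND2 did not, being listed at 0 TPM in 5 samples and at 0.0024 TPM in the sixth. Of these 46, 2 were called, both lower with A9: CCND3 and TYMS (thymidylate synthase). The background was 3.36% of all genes called (433 of 12869) and 0.855% called lower. At an unadjusted p under 0.05 there were 7 genes (15.2%), beside 20.4% of all genes. All 7 were lower with A9: CCND3, TYMS, BIRC5, TK1, UBE2C, CCNB2 and CENPA. Estimates were spread around 0, with 25 above and 21 below and a median of 0.0079, whereas the median of all genes was 0.16. That general shift was 0.023 after median-ratio scaling, which set the members' medians at -0.14 for S-phase and -0.16 for mitotic genes, from 0.021 and -0.015, with 35 of 46 estimates below 0. With the trend on transcript length removed, 35 were below 0 as well, and the medians were -0.18 and -0.16. All A9 samples were below all DMSO samples for 10 genes, where 10.6% of all genes showed this. These were CCND3, PCNA, TYMS, TK1, CCNB2, AURKB, CDC20, UBE2C, BIRC5 and CENPA. MKI67 was the single gene with all A9 samples above, where 27.2% of all genes were.

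**Figure D1:**
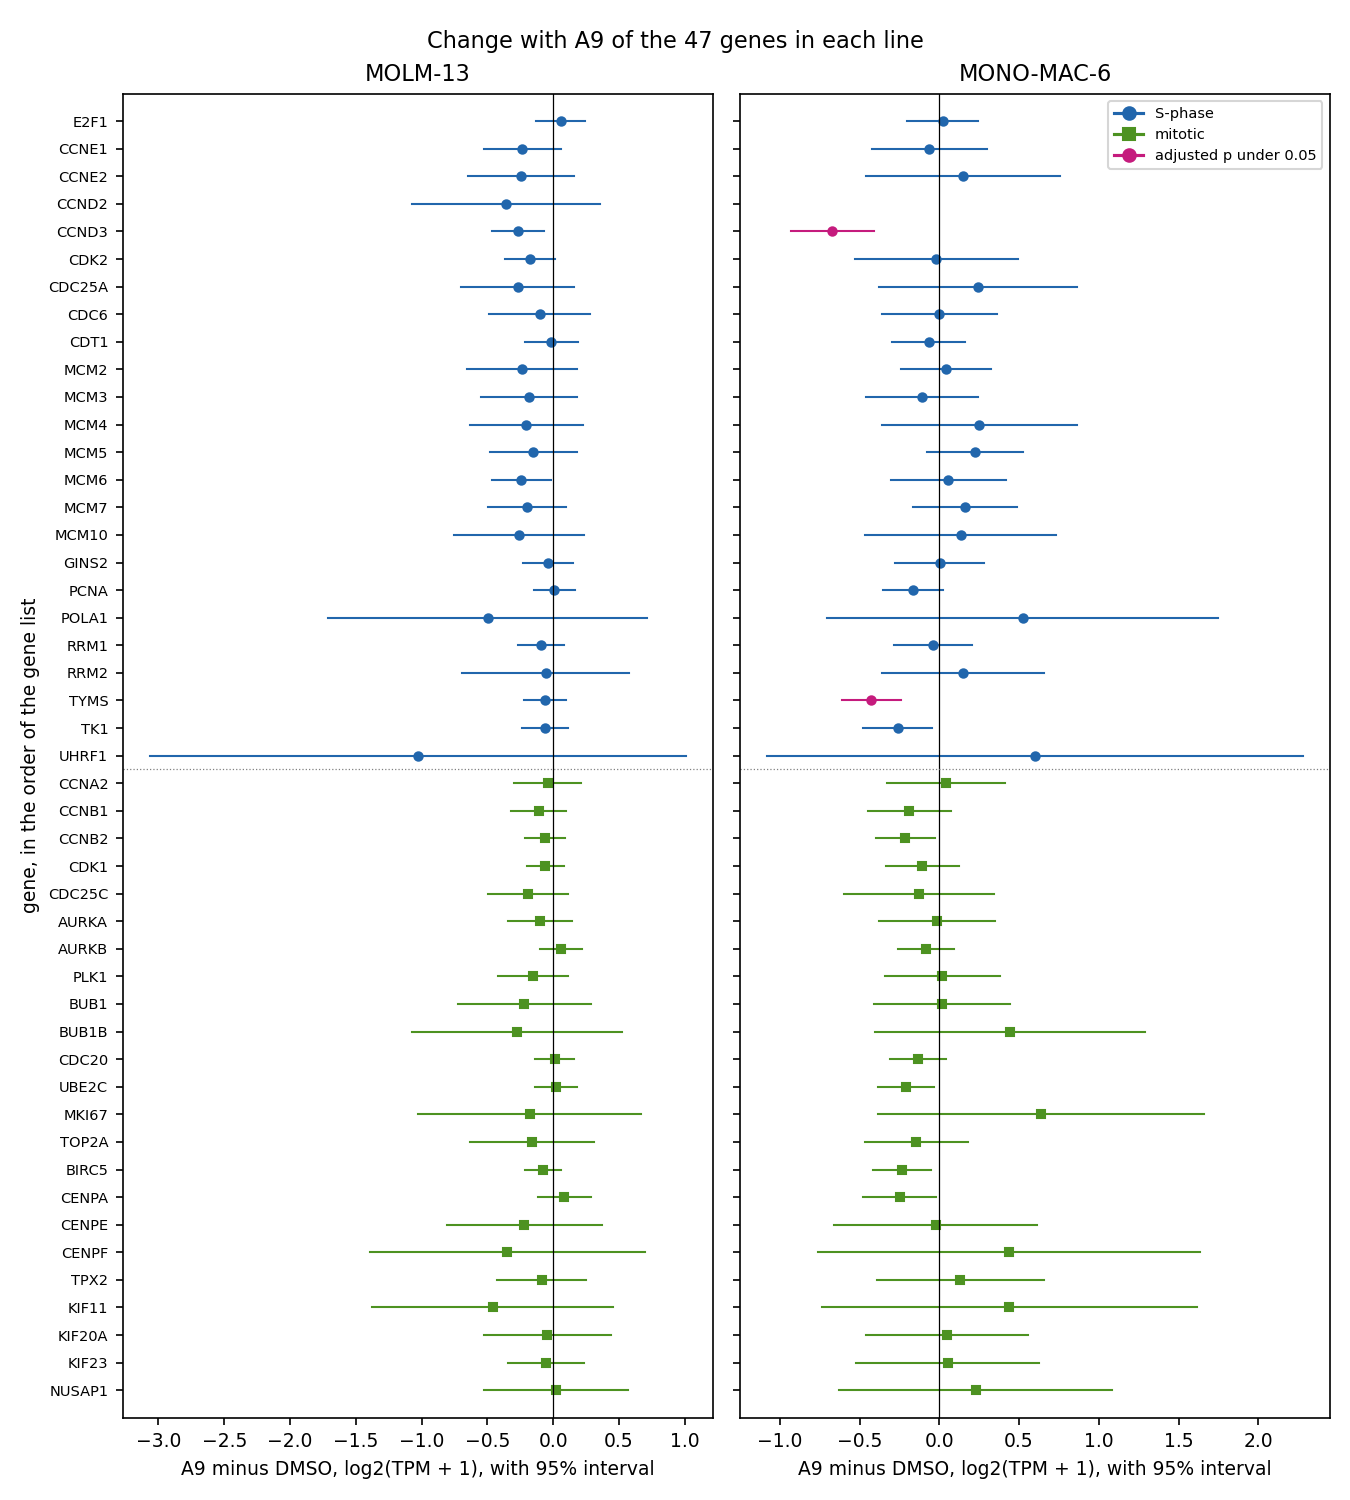
Change with A9 of each gene in MOLM-13 (left) and MONO-MAC-6 (right), as A9 minus DMSO on the log2(TPM + 1) scale (horizontal axis), with the genes in rows, S-phase genes above the dotted line and mitotic genes below it. Bars are 95% intervals of the fit, CCND3 and TYMS in MONO-MAC-6 are the 2 genes in the colour for an adjusted p under 0.05, CCND2 has no MONO-MAC-6 value, and the widest bars are those of UHRF1.

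Among the regulators of the G1/S step, CCND3 had the largest called change of the 47 genes. It encodes cyclin D3, the partner of CDK4 and CDK6 that starts RB phosphorylation, and lies on chromosome 6 (41934933 to 42050357, minus strand, GRCh38). In MONO-MAC-6 it stood at 122, 137 and 151 TPM in DMSO samples 1 to 3 and at 92.8, 79.3 and 83.8 TPM in the A9 samples. The highest A9 sample was thus well below the lowest DMSO sample, and the ratio of the A9 mean to the DMSO mean was 0.624. The log2 fold change was -0.67 (SE 0.11, adjusted p 0.0283 in limma). In MOLM-13 the DMSO samples held 199, 185 and 183 TPM and the A9 samples 157, 171 and 142 TPM, again with no overlap. There the change on the log2 scale was -0.27 (SE 0.082, adjusted p 0.399 in limma), which did not pass the threshold. The main CCND3 transcript, ENST00000372991, held 79.5% of the gene's TPM and showed the same order of groups. It ran from 109.6 to 126 TPM with DMSO and from 68.4 to 80.3 TPM with A9 in MONO-MAC-6, and from 140.1 to 144 TPM and from 109.5 to 126 TPM in MOLM-13.

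CCND2 encodes cyclin D2, the other D-type cyclin in the list. It had 5.85, 2.31 and 4.93 TPM with DMSO and 2.83, 3.85 and 2.43 TPM with A9 in MOLM-13. The groups overlapped and the log2 fold change was -0.36 (SE 0.30, adjusted p 0.870 in limma). With CCND1 not above 0.737 TPM in any sample, CCND3 carried nearly all D-type cyclin RNA in both lines.

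CCNE1, cyclin E1, activates CDK2 at the start of S phase. In MOLM-13 it stood at 16.5, 15.5 and 16.2 TPM with DMSO and at 14.5, 14.8 and 11.4 TPM with A9, without overlap. The change on the log2 scale was -0.23 (SE 0.12, adjusted p 0.751 in limma). The main CCNE1 transcript, ENST00000262643, held 70.8% of the gene's TPM and did overlap in MOLM-13. It ran from 9.73 to 12.03 TPM with DMSO and from 8.70 to 10.7 TPM with A9. In MONO-MAC-6 the values of the whole gene were 19.2, 27.1 and 26.1 TPM with DMSO and 23.8, 22.5 and 22.3 TPM with A9. DMSO sample 1 was the lowest of all 6 there and the other DMSO samples were the highest, and the log2 fold change was -0.062.

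CDK2 itself had 61.1, 54.4 and 57.2 TPM with DMSO and 51.3, 53.6 and 47.3 TPM with A9 in MOLM-13 (log2 fold change -0.18, SE 0.080, adjusted p 0.682 in limma). The A9 samples all lay below, but the highest of them and the lowest DMSO sample differed by less than 1 TPM. In MONO-MAC-6 the CDK2 values were 35.2, 58.8 and 61.0 TPM with DMSO and 50.04, 48.4 and 50.2 TPM with A9. As for CCNE1, DMSO sample 1 was the lowest and the other 2 were the highest.

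E2F1, the activator of the S-phase genes, was the steadiest of the regulators. In MOLM-13 it had 27.0, 26.2 and 28.4 TPM with DMSO and 28.2, 27.5 and 29.2 TPM with A9. Its MONO-MAC-6 values were 26.0, 27.5 and 28.2 TPM with DMSO and 28.7, 26.4 and 27.8 TPM with A9. Both differences were small beside their error, with log2 fold changes of 0.055 (95% interval -0.13 to 0.24) and 0.021 (-0.20 to 0.24). For CCNE2, the second E cyclin, and CDC25A, the phosphatase that activates CDK2, the groups overlapped in both lines. Their log2 fold changes were -0.24 and -0.27 in MOLM-13 and 0.15 and 0.24 in MONO-MAC-6.

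**Figure D2:**
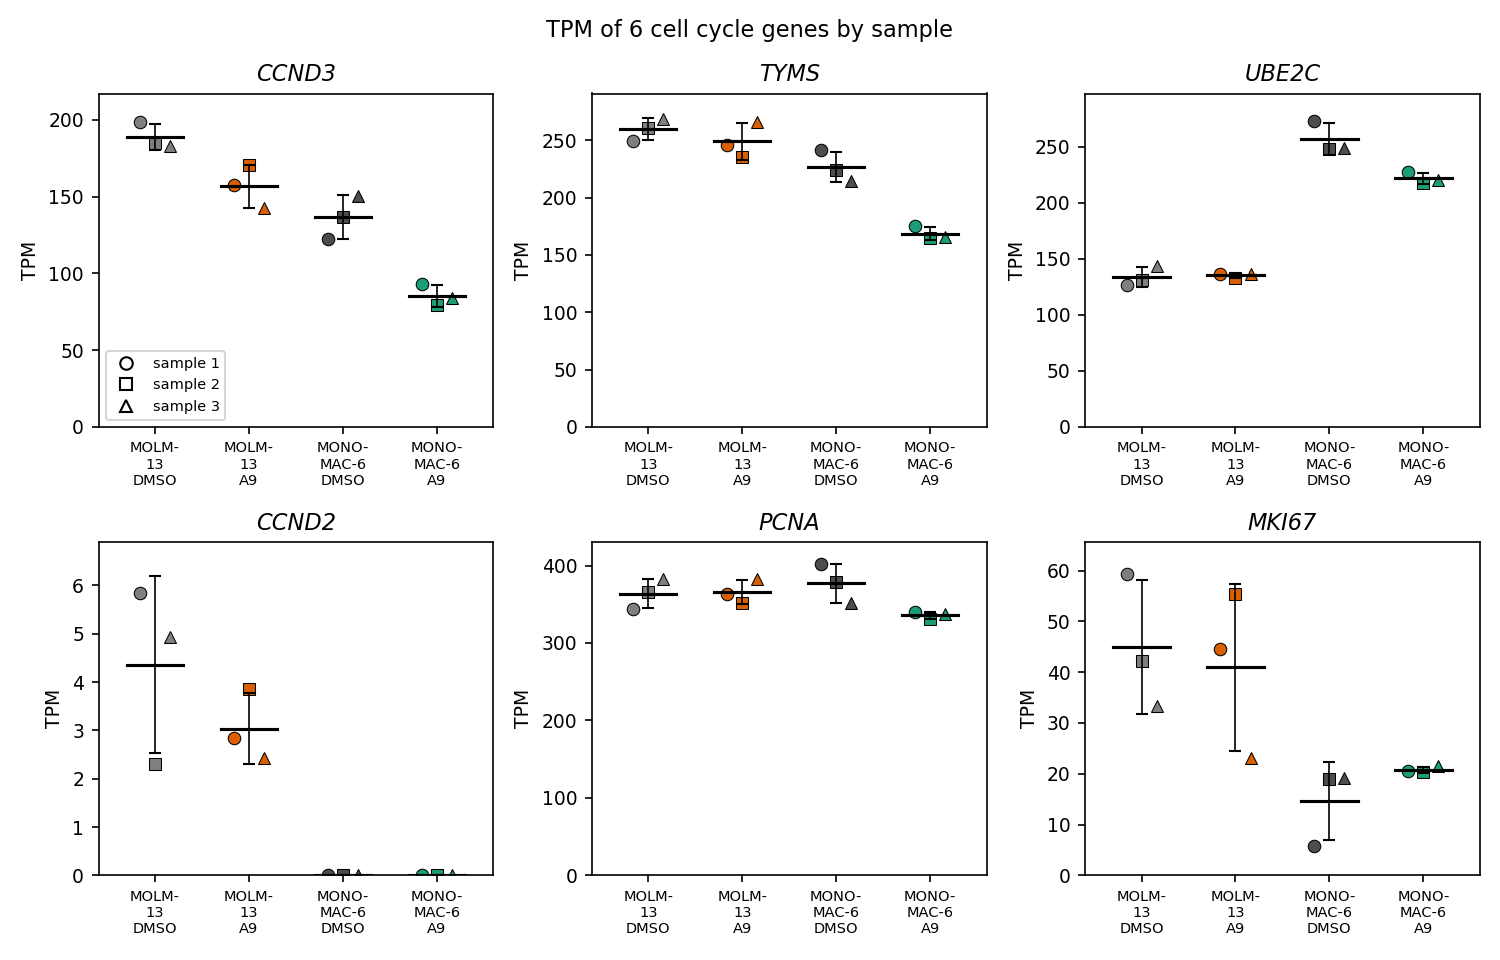
TPM (vertical axes, from 0) of CCND3, TYMS, UBE2C, CCND2, PCNA and MKI67 in the 4 groups (horizontal axes). Symbols are samples 1 to 3, the thick line is the mean and the bar 1 SD; CCND3 and TYMS are lower in all 3 A9 samples of MONO-MAC-6, at 79.3 to 92.8 and 164 to 175 TPM, and MONO-MAC-6 DMSO sample 1 is the low point for MKI67 at 5.79 TPM.

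The genes of origin licensing and firing all had estimates below 0 in MOLM-13 (10 of 10, median -0.19), and 0 of 10 were called. MCM6, a subunit of the ring-shaped MCM2 to MCM7 helicase, gave the smallest p of them. Its level was 103.5, 95.1 and 87.6 TPM with DMSO and 84.1, 84.6 and 72.7 TPM with A9, without overlap (log2 fold change -0.24, SE 0.093, adjusted p 0.572 in limma). The main MCM6 transcript, ENST00000264156, held 97.8% of its TPM and did overlap narrowly. Its lowest DMSO sample was at 84.26 TPM and its highest A9 sample at 84.29 TPM. MCM7 had 295, 279 and 259 TPM with DMSO and 258, 272 and 201 TPM with A9 (log2 fold change -0.20, SE 0.12, adjusted p 0.808 in limma). MCM2 had 110.5, 96.8 and 92.4 TPM with DMSO and 94.2, 99.4 and 64.4 TPM with A9 (log2 fold change -0.23, SE 0.17, adjusted p 0.855 in limma). In all 3 of these genes A9 sample 3 was the lowest of the 6 samples, and in MCM2 and MCM7 the groups overlapped. Over the 6 helicase subunits the log2 fold changes ran from -0.24 to -0.15, with a median of -0.20.

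In MONO-MAC-6 the same 10 genes had 8 estimates above 0 and a median of 0.050, below the 0.16 of all genes. MCM2 stood at 114, 138 and 154 TPM with DMSO and at 137, 140.3 and 138 TPM with A9, a log2 fold change of 0.044 (95% interval -0.24 to 0.33). For MCM6 the values were 66.3, 91.9 and 97.0 TPM with DMSO and 87.2, 87.6 and 87.0 TPM with A9. For MCM7 they were 124, 159 and 177 TPM with DMSO and 169, 170.5 and 169 TPM with A9. The 3 A9 samples of each gene were nearly level and lay within the range of the DMSO samples, of which sample 1 was the lowest. MCM4, at 86.6, 159.9 and 172 TPM with DMSO and 157 to 161 TPM with A9, showed this most widely among the helicase genes. MCM3, MCM5, MCM10 (which helps activate the helicase), GINS2 (a subunit of the active helicase), CDC6 and CDT1 overlapped between groups in both lines. Their log2 fold changes ran from -0.26 (MCM10) to -0.015 (CDT1) in MOLM-13 and from -0.11 (MCM3) to 0.22 (MCM5) in MONO-MAC-6.

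At the fork and in nucleotide supply, TYMS was the called gene. It makes thymidylate for DNA from deoxyuridylate, is the target of fluorouracil, and lies on chromosome 18 (657604 to 673578, plus strand, GRCh38). In MONO-MAC-6 it stood at 241, 224 and 215 TPM with DMSO and at 175, 164 and 166 TPM with A9. The groups lay far apart beside their spread, with a ratio of the A9 mean to the DMSO mean of 0.743 and a log2 fold change of -0.43 (SE 0.077, adjusted p 0.0390 in limma). In MOLM-13 it had 249.7, 261 and 269 TPM with DMSO and 246, 235 and 266 TPM with A9, which overlapped (log2 fold change -0.060, SE 0.067, adjusted p 0.870 in limma). The main transcript, ENST00000323274, held 87.6% of the TPM of TYMS and ran from 180.5 to 197 TPM with DMSO and from 145 to 154 TPM with A9 in MONO-MAC-6. A second, shorter TYMS transcript, ENST00000581920 (886 bases, listed as processed transcript), varied more, at 56.4, 22.3 and 8.53 TPM in the DMSO samples and 7.83 to 10.7 TPM with A9. ENOSF1 is transcribed from the opposite strand and overlaps the end of TYMS. Whether the counting used strand is not given in the sources used here, so reads of the shared stretch cannot be told apart.

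TK1, thymidine kinase, salvages thymidine for the same product. Its MONO-MAC-6 level was 140.3, 118 and 124 TPM with DMSO and 107, 102 and 109.9 TPM with A9, without overlap. Its log2 fold change of -0.26 (SE 0.090, adjusted p 0.186 in limma) missed the threshold. PCNA, the sliding clamp of DNA polymerase, had 401, 379 and 351 TPM with DMSO and 339, 331 and 338 TPM with A9 there, also without overlap (log2 fold change -0.16, SE 0.078, adjusted p 0.288 in limma). In MOLM-13, TK1 had 90.5, 91.3 and 101 TPM with DMSO and 89.5, 95.03 and 86.4 TPM with A9. PCNA had 344, 365 and 382 TPM with DMSO and 363, 351 and 382 TPM with A9 in that line, and both genes overlapped between groups. The MOLM-13 change of PCNA was 0.0079 with a 95% interval from -0.15 to 0.16.

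RRM1 and RRM2 form ribonucleotide reductase, which makes the deoxynucleotides. RRM2 varied without regard to treatment, at 39.5, 29.7 and 30.4 TPM with DMSO and 43.5, 21.1 and 34.3 TPM with A9 in MOLM-13. The MONO-MAC-6 samples held 34.3, 47.9 and 36.2 TPM with DMSO and 55.2, 43.9 and 33.7 TPM with A9. The log2 fold changes of RRM2 were -0.056 (SE 0.26) and 0.15 (SE 0.21). RRM1 ran from 75.7 to 90.4 TPM over all samples of MOLM-13 and from 65.8 to 80.6 TPM over those of MONO-MAC-6. UHRF1, which recruits the maintenance DNA methyltransferase to the fork, was the most variable of the 47 genes. Its MOLM-13 values were 56.6, 23.1 and 14.5 TPM with DMSO and 18.5, 31.2 and 3.01 TPM with A9, a log2 fold change of -1.03 with an SE of 0.84 (adjusted p 0.869 in limma). In MONO-MAC-6 they were 4.21, 13.4 and 40.8 TPM and 24.5, 20.04 and 19.3 TPM. POLA1, the catalytic subunit of the primase polymerase, varied in the same samples, from 1.96 to 12.05 TPM in MOLM-13 and from 1.62 to 9.71 TPM in MONO-MAC-6.

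Of the 8 mitotic cyclins and kinases, 0 were called in either line. CCNB1 encodes cyclin B1 and CDK1 its kinase, which together trigger entry into mitosis. CCNB1 stood at 126, 121 and 125 TPM with DMSO and at 124, 119.6 and 102 TPM with A9 in MOLM-13. It stood at 93.1, 112 and 117 TPM with DMSO and at 98.6, 93.2 and 89.6 TPM with A9 in MONO-MAC-6. The log2 fold changes of CCNB1 were -0.11 (SE 0.087, adjusted p 0.867 in limma) and -0.19 (SE 0.11, adjusted p 0.354 in limma).

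CDK1 had 118, 115 and 109.9 TPM with DMSO and 111, 107 and 110.1 TPM with A9 in MOLM-13. For MONO-MAC-6 the values were 64.2, 75.6 and 66.0 TPM with DMSO and 66.6, 63.2 and 60.8 TPM with A9. The groups overlapped in both lines, with log2 fold changes of -0.059 (95% interval -0.20 to 0.079) and -0.11 (-0.33 to 0.12). CCNB2, the other B cyclin, was lower in all A9 samples of MONO-MAC-6, at 55.4 to 59.5 TPM beside 64.7 to 68.1 TPM (log2 fold change -0.21, SE 0.077, adjusted p 0.198 in limma). AURKB, the kinase of the chromosomal passenger complex, was also below DMSO there, by a narrower margin (57.4 to 59.3 beside 61.4 to 62.9 TPM). CCNA2, CDC25C, AURKA and PLK1 overlapped in both lines, with log2 fold changes from -0.19 to -0.041 in MOLM-13 and from -0.13 to 0.043 in MONO-MAC-6.

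Among the genes of the spindle checkpoint and the anaphase-promoting complex, UBE2C, the ubiquitin-conjugating enzyme of that complex, came nearest to the threshold. In MONO-MAC-6 it stood at 273, 248 and 249 TPM with DMSO and at 227, 217 and 220.4 TPM with A9, without overlap (log2 fold change -0.21, SE 0.074, adjusted p 0.191 in limma). In MOLM-13 it had 126, 131 and 143 TPM with DMSO and 137, 133 and 136 TPM with A9, a change of 0.021. UBE2C was also the gene with the highest MONO-MAC-6 level relative to MOLM-13 in the DMSO samples, at a ratio of 1.92. CDC20, an activator of the complex, ran from 102 to 106 TPM with A9 and from 109 to 118 TPM with DMSO in MONO-MAC-6 and overlapped in MOLM-13. The checkpoint kinases BUB1 and BUB1B overlapped in both lines. BUB1B ran from 22.7 TPM in MONO-MAC-6 DMSO sample 1 to 60.5 TPM in DMSO sample 3 of the same line.

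The largest role group was that of chromosome, kinetochore and spindle proteins. BIRC5 encodes survivin, a chromosomal passenger protein that also inhibits apoptosis, and was the mitotic gene with the smallest adjusted p. It had 83.3, 86.9 and 87.1 TPM with DMSO and 75.8, 69.6 and 73.05 TPM with A9 in MONO-MAC-6 (log2 fold change -0.23, SE 0.076, adjusted p 0.164 in limma). In MOLM-13 it had 62.3, 61.8 and 64.0 TPM with DMSO and 60.1, 59.5 and 58.3 TPM with A9 (log2 fold change -0.078, SE 0.058, adjusted p 0.855 in limma). BIRC5 and CCND3 were the 2 genes with every A9 sample below every DMSO sample in both lines. The share of all genes with this order in both lines at once was not computed. The shares for single lines were 6.42% of all genes (MOLM-13) and 10.6% (MONO-MAC-6). For BIRC5 the MOLM-13 groups lay close, with the highest A9 sample at 60.1 TPM and the lowest DMSO sample at 61.8 TPM.

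MKI67 encodes Ki-67, the proliferation marker that coats mitotic chromosomes. In MOLM-13 it stood at 59.2, 42.2 and 33.4 TPM with DMSO and at 44.5, 55.3 and 23.1 TPM with A9, so the groups overlapped widely (log2 fold change -0.18, SE 0.35, adjusted p 0.910 in limma). In MONO-MAC-6 it stood at 5.79, 19.0 and 19.2 TPM with DMSO and at 20.5, 20.4 and 21.5 TPM with A9. There the log2 fold change of 0.64 (SE 0.42, adjusted p 0.408 in limma) rested on DMSO sample 1, and without that sample it was 0.12. The DMSO mean of MKI67 in MONO-MAC-6 was 0.326 of that in MOLM-13, a ratio that includes the low DMSO sample 1 of MONO-MAC-6.

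TOP2A, the topoisomerase that untangles sister chromatids and the target of etoposide, had 117, 97.4 and 75.0 TPM with DMSO and 89.9, 98.2 and 68.8 TPM with A9 in MOLM-13. The MONO-MAC-6 samples held 77.9, 106 and 105 TPM with DMSO and 89.3, 87.5 and 82.2 TPM with A9. The log2 fold changes were -0.16 (SE 0.20) and -0.14 (SE 0.13). CENPA, the histone H3 variant of centromeres, was lower in all A9 samples of MONO-MAC-6, at 26.0 to 28.4 beside 31.6 to 34.7 TPM (log2 fold change -0.25, SE 0.094, adjusted p 0.211 in limma). The kinetochore proteins CENPE and CENPF, the spindle factors TPX2 and NUSAP1, and the kinesins KIF11, KIF20A and KIF23 overlapped in both lines. Their log2 fold changes ran from -0.46 (KIF11) to 0.020 (NUSAP1) in MOLM-13 and from -0.023 (CENPE) to 0.44 (KIF11) in MONO-MAC-6.

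The levels of the S-phase and mitotic genes were next compared with each other within each sample, over 23 genes of each kind with CCND2 left out. In MOLM-13 the mean log2(TPM + 1) of the S-phase genes was above that of the mitotic genes by 0.23, 0.22 and 0.27 in the DMSO samples and by 0.17, 0.14 and 0.16 in the A9 samples. The 2 groups did not overlap in that difference, which includes UHRF1, the most variable of the 47 genes. UHRF1 ran from 14.5 to 56.6 TPM with DMSO and from 3.01 to 31.2 TPM with A9 in MOLM-13. With UHRF1 left out of the S-phase mean, the groups overlap in the difference, so their separation in MOLM-13 rests on that gene. In MONO-MAC-6 the difference was 0.32, 0.17 and 0.26 with DMSO and 0.27, 0.22 and 0.26 with A9, which overlapped. These are descriptions of the chosen genes and carry no p. The 47 genes together held 4168, 3846 and 3696 TPM with DMSO and 3739, 3872 and 3211 TPM with A9 in MOLM-13. In MONO-MAC-6 they held 2989, 3560 and 3667 TPM with DMSO and 3280, 3181 and 3161 TPM with A9. MOLM-13 A9 sample 3 and MONO-MAC-6 DMSO sample 1 were thus the lowest of their lines.

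**Figure D3:**
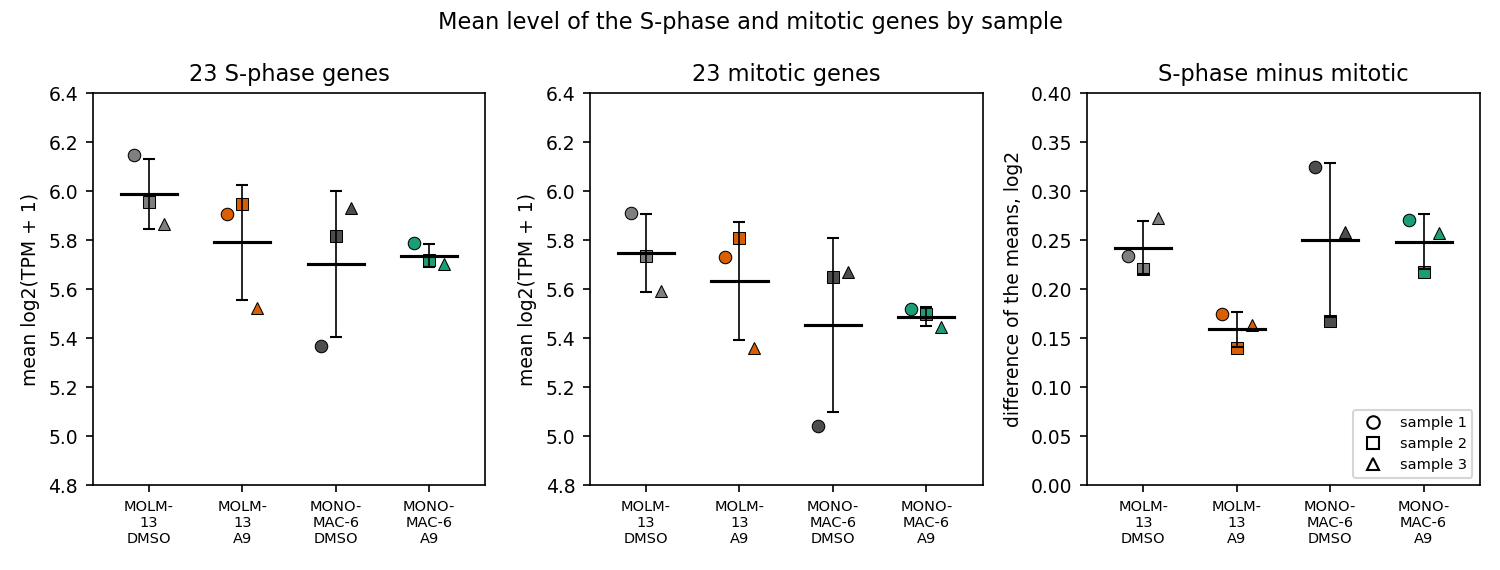
Mean log2(TPM + 1) of the 23 S-phase genes (left) and of the 23 mitotic genes (middle), and their difference (right), in each sample of the 4 groups. Symbols are samples 1 to 3, the thick line is the mean and the bar 1 SD, the left and middle axes start at 4.8, and in the right panel the MOLM-13 A9 samples (0.14 to 0.17) lie below the DMSO samples (0.22 to 0.27). The highly variable UHRF1 is among the 23 S-phase genes, and without it the MOLM-13 groups overlap in the difference.

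The samples that stood apart did so along transcript length. In MONO-MAC-6 DMSO sample 1, the 6 genes with a mean transcript length of at least 4000 bases (KIF11, POLA1, TOP2A, CENPF, CENPE and MKI67) had a median deviation from the line's mean of -1.39 on the log2 scale. The 14 genes under 2000 bases, such as UBE2C, TYMS and PCNA, had 0.098 in the same sample. In MOLM-13 A9 sample 3 the medians were -0.94 and -0.081. MOLM-13 DMSO sample 3 had the same direction to a smaller extent, with -0.27 and 0.069. MOLM-13 DMSO sample 1 was the opposite, with 0.51 for the long genes and -0.0038 for the short ones. Across the 46 genes other than CCND2, the Spearman correlation of deviation with transcript length was -0.66 in MONO-MAC-6 DMSO sample 1, -0.73 in MOLM-13 A9 sample 3, -0.68 in MOLM-13 DMSO sample 3 and 0.75 in MOLM-13 DMSO sample 1. Over all genes tested it was -0.47, -0.49, -0.41 and 0.52 in these samples. The log2 fold changes followed length as well, with a Spearman correlation of -0.62 over 47 genes in MOLM-13 and 0.64 over 46 genes in MONO-MAC-6, beside -0.31 and 0.26 over all genes. All of these are across genes of the same libraries and are not independent points. The 47 genes have a median length of 2675 bases, longer than the 2099 and 2043 bases of all genes tested in each line. The part of RNA quality or library preparation in this relation was not tested.

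**Figure D4:**
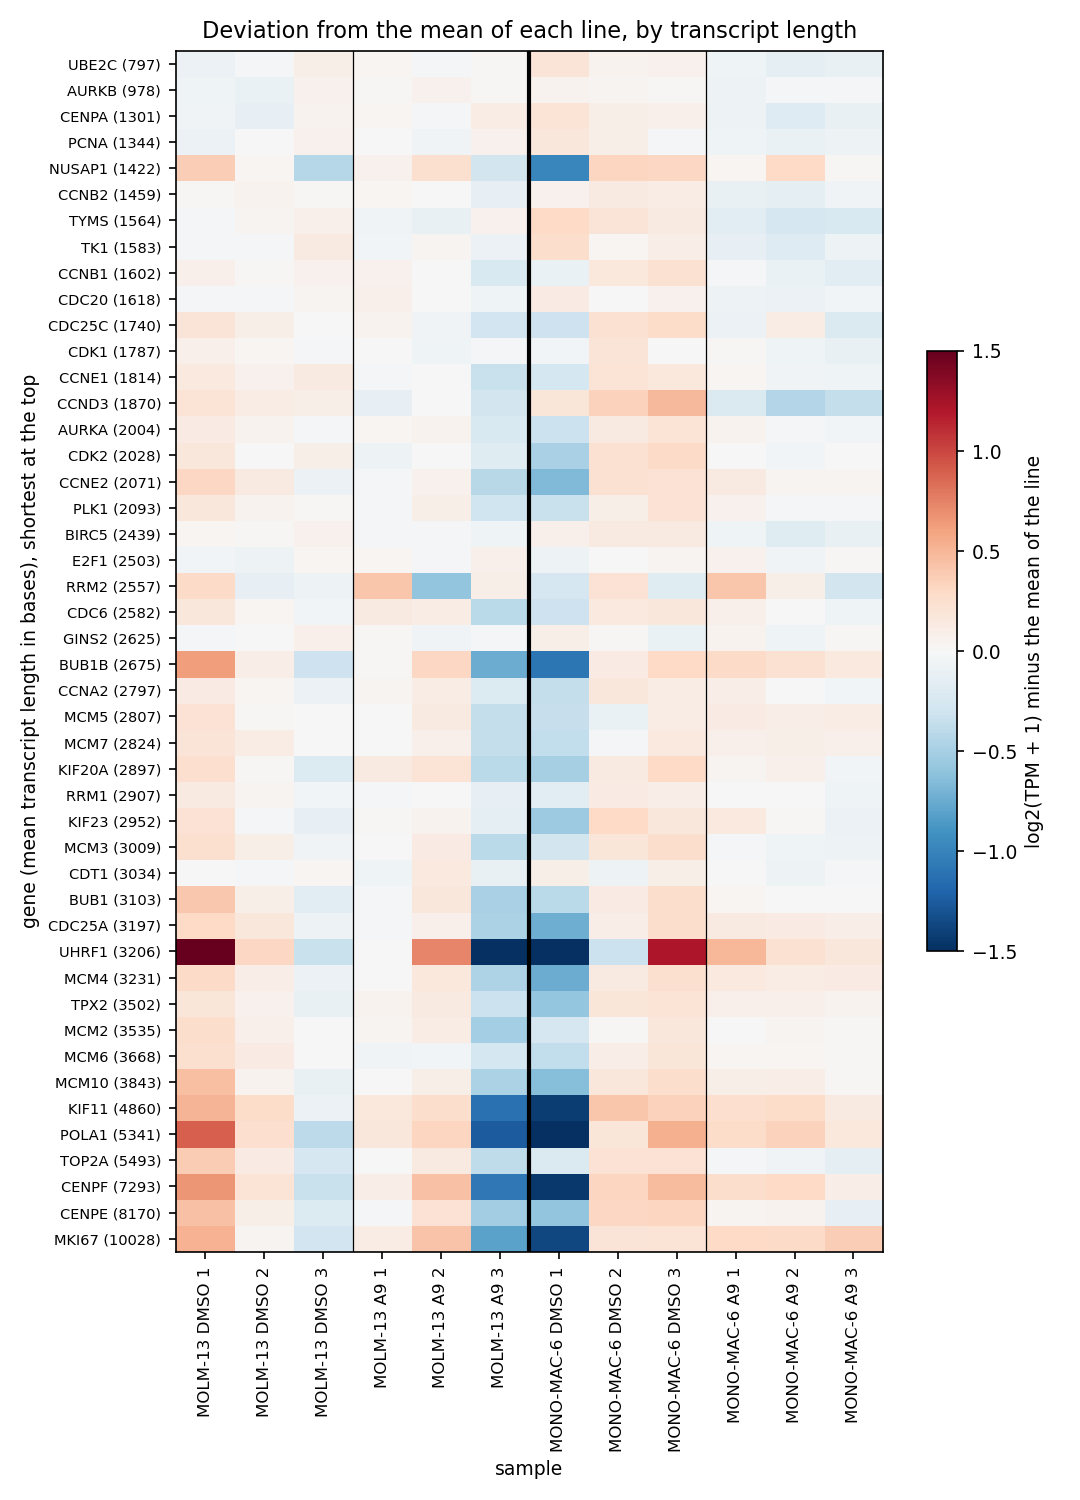
Deviation of log2(TPM + 1) from the mean of the line (colour, red above and blue below, with colours saturating at 1.5) for 46 genes (rows, shortest transcript at the top, mean length in bases in brackets) in the 12 samples (columns). The blue at the bottom of MOLM-13 A9 sample 3 and MONO-MAC-6 DMSO sample 1 is the set of long genes such as KIF11, POLA1, CENPF and MKI67, while CCND3 and TYMS are pale blue to blue in all 3 A9 samples of MONO-MAC-6.

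Each result was also computed without single samples and after taking out the trend on transcript length. Without MONO-MAC-6 DMSO sample 1, 14 of 46 genes were called and all 14 were lower with A9, where 24.8% of all genes were called and 10.3% were called lower. They comprised 6 S-phase genes (CCNE1, CCND3, CDK2, MCM3, TYMS and TK1) and 8 mitotic genes (CCNB1, CCNB2, AURKA, UBE2C, TOP2A, BIRC5, CENPA and CENPE). The log2 fold changes of these ran from -0.75 (CCND3, adjusted p 0.000441 in limma) and -0.38 (TYMS, adjusted p 0.000998 in limma) to -0.16 (UBE2C, adjusted p 0.0204 in limma). Estimates below 0 numbered 40 of 46, and the medians were -0.12 for S-phase and -0.18 for mitotic genes, where the median of all genes was 0.027. Without any 1 of the other 5 MONO-MAC-6 samples, 0 genes were called, with 2 to 7 at an unadjusted p under 0.05. There the adjusted p of CCND3 ran from 0.0714 to 0.168 and that of TYMS from 0.0707 to 0.250 in limma.

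With the length trend removed and all samples kept, 5 of 46 genes were called, all lower: CCND3, TYMS, CCNB2, CENPE and MCM3. The background was then 9.29% of all genes called and 4.34% called lower. CCND3 had a log2 fold change of -0.79 (adjusted p 0.00277 in limma) and TYMS of -0.51 (adjusted p 0.0274 in limma). CCND3 was also called with median-ratio scaling (adjusted p 0.0110 in limma) but TYMS was not (adjusted p 0.109 in limma). In MOLM-13, 0 of 47 genes were called with the length trend removed or without any 1 sample, and 35 estimates lay below 0 with the trend removed. Without MOLM-13 A9 sample 3 the number below 0 was 32 of 47, and the medians lay nearer 0, at -0.061 for S-phase and 0.0054 for mitotic genes. Without MOLM-13 DMSO sample 1 the medians were -0.11 and -0.033.

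**Figure D5:**
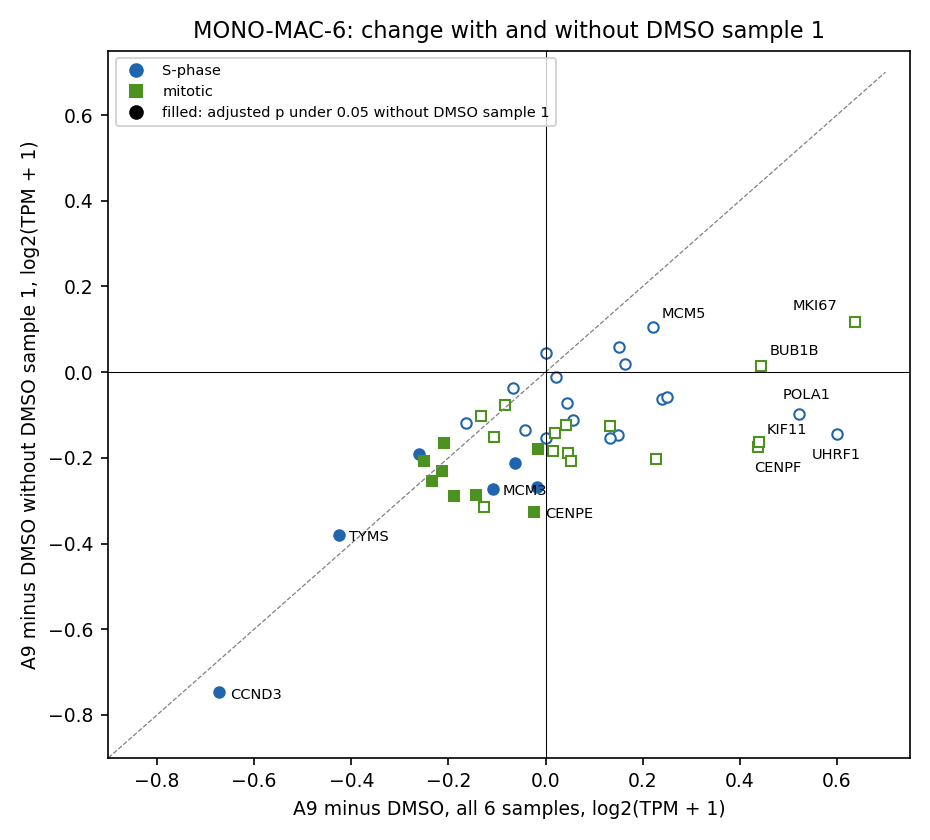
Change with A9 in MONO-MAC-6 of each gene over all 6 samples (horizontal axis) and without DMSO sample 1 (vertical axis), both as log2(TPM + 1) differences, with equal values on the dashed line. Circles are S-phase and squares mitotic genes, filled for the 14 with an adjusted p under 0.05 without that sample; long genes such as MKI67, CENPF and KIF11 move from 0.44 to 0.64 on the horizontal axis to between -0.18 and 0.12 on the vertical, while CCND3 and TYMS stay near the line.

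An interaction term fitted to all 12 samples asked whether A9 acted differently on these genes in the 2 lines. Each line had its own dose, so an effect of line and an effect of dose cannot be told apart. Of the 47 genes, 0 passed the threshold in limma, where 2.99% of all genes did (401 of 13410), and 4 (8.51%) had an unadjusted p under 0.05, beside 17.7% of all genes. These were TYMS, with a change lower by 0.36 in MONO-MAC-6 (difference -0.36, SE 0.093, adjusted p 0.0692 in limma), CCND3 (difference -0.40, SE 0.13, adjusted p 0.170 in limma), CENPA (difference -0.33, adjusted p 0.159 in limma) and UBE2C (difference -0.23, adjusted p 0.220 in limma). The median difference was 0.11 over the 47 genes and 0.20 over all genes. With these settings, the calls of CCND3 and TYMS in MONO-MAC-6 and not in MOLM-13 do not show that the lines differ in these genes. CCND3 did pass the interaction test with median-ratio scaling (difference -0.61, adjusted p 0.0178 in limma, with 3.88% of all genes called) and after length trend removal (difference -0.54, adjusted p 0.00468 in limma, with 5.85% called). With DMSO alone, the 3 MONO-MAC-6 samples lay below the 3 MOLM-13 samples for 18 of the 47 genes, where 23.5% of all genes did, and above for 7, where 35.0% did. They overlapped for 22. GINS2 (ratio of means 0.406), KIF11 (0.477), CDT1 (0.479) and MKI67 (0.326) were among the lower, and UBE2C, CCNE1 (1.502) and AURKA (1.44) among the higher. The tables of the lines are separate files on the same TPM scale, so these ratios are descriptive. Those of MKI67 and KIF11 include MONO-MAC-6 DMSO sample 1, at 5.79 and 5.92 TPM. The other DMSO samples of that line held 19.0 and 19.2 TPM of MKI67 and 23.8 and 22.7 TPM of KIF11.

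The wider cell cycle was followed in 119 further genes of replication, mitosis, the E2F, DREAM and RB factors, and the G1 cyclin kinases with their inhibitors. In MOLM-13, 115 were tested and 0 were called, where 0.121% of all genes were. At an unadjusted p under 0.05 there were 3 (2.61%), beside 7.89% of all genes, and the median was -0.076, beside -0.046. In MONO-MAC-6, 118 were tested and 1 was called, where 3.36% of all genes were. There 9 (7.63%) had an unadjusted p under 0.05, beside 20.4% of all genes, and the median was 0.050, beside 0.16. The called gene was CDKN1C, which encodes the CDK inhibitor p57. It was low but rose in MONO-MAC-6, from 0.737, 0.711 and 0.626 TPM with DMSO to 1.995, 3.37 and 2.85 TPM with A9 (log2 fold change 1.13, SE 0.16, adjusted p 0.0203 in limma). The ratio of the TPM means was 3.96, larger than that log2(TPM + 1) change shows. In MOLM-13 it was not above 0.142 TPM in any sample. CDKN1C passed the filter of 1 TPM only through the A9 group of MONO-MAC-6 (mean 2.74 TPM), as its DMSO mean there was 0.691 TPM. The call thus concerns a gene admitted by the group in which it was high. The partners of cyclin D3, CDK4 and CDK6, were not called: CDK4 ran from 240 to 268 TPM with DMSO and from 268 to 278 TPM with A9 in MONO-MAC-6. CDK6 ran from 14.0 to 33.4 TPM and from 30.8 to 34.5 TPM there.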

How the data were processed

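The authors deposited 1 table of TPM per cell line, with 1 row per Ensembl transcript and 1 column per library (36 libraries). The submitters' processing notes name kallisto, limma and GRCh38, with no versions, and the annotation is not given in the sources used here. Each library summed to the same total, as TPM must. Of 207175 transcripts, 162561 (78.5%) matched GENCODE 29 and were summed to 35472 gene symbols. The rest were left out.

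The labels state 3 samples per condition but list 9 libraries with 2 numbers each. They do not say which number marks the culture. Libraries that share the first number were averaged, which gave 3 samples per group. These libraries lie closer together: the members' median SD was 0.047 (MOLM-13) and 0.0496 (MONO-MAC-6) within a first number, and 0.177 and 0.205 within a second number. The other choice called 32 of the 47 genes in MOLM-13 in place of 0. Tests ran on log2(TPM + 1) for genes whose mean reached 1 TPM in either group. Fits used lmFit and the trended, robust form of eBayes in limma 3.58.1 (R 4.3.3), two-sided, with Benjamini-Hochberg adjustment over all genes tested and a threshold of 0.05. With 3 samples on each side, exact permutation cannot reach a p below 0.1. Each line was fitted alone, and the interaction used 12 samples. The limma fits were tested on simulated data with independent noise, which lacked the trend on transcript length seen in these samples.

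The 47 genes, the other lists and the named genes were chosen with earlier results of these data known. Every sample's value is given for the genes past the threshold or, where fewer than 5 passed, the 5 with the smallest unadjusted p, and for 12 set genes. Other genes given with values, such as UHRF1 in every sample and MCM4 in part, were chosen after their values were seen. The alternatives used no filter, a pseudocount of 0.1, a minimum of 5 TPM, averaging by second number, library 1 alone, median-ratio scaling, the length trend removed by lowess (span 0.3), a replicate block, eBayes without trend and robust, and each sample left out. Length removal with each sample left out was added after seeing the data. Tables and figures used Python 3.11.15, pandas 2.3.3, SciPy 1.17.1 and matplotlib 3.10.9.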

Additional observations from a re-analysis of the deposited data

Results flagged for a closer look

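The A9 change of CDKN1C, the CDK inhibitor p57, differed between the lines by 1.18 on the log2 scale, with a rise in MONO-MAC-6 and mean levels of 0.0592 TPM with DMSO and 0.0220 TPM with A9 in MOLM-13 (limma interaction, SE 0.18, adjusted p 0.00514). All 3 A9 samples of MONO-MAC-6 were above all 3 DMSO samples, where 27.2% of all genes showed this. The gene passed the filter of 1 TPM only through that A9 group (mean 2.74 TPM), with a DMSO mean of 0.691 TPM in the same line. In MOLM-13 the gene was below 0.143 TPM in every sample and under the filter, so a differing response and an absence of expression cannot be told apart for that line.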

How the results depend on the processing

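The number of the 47 genes called was 0 in MOLM-13 under every alternative run except averaging by second number, which gave 32 (46.9% of all genes). In MONO-MAC-6 it was 2, and it was 0 with no filter, 28 averaged by second number (67.6% of all genes), 1 with library 1 alone, 1 with median-ratio scaling, 5 with the length trend removed, 1 with eBayes without trend and robust, and 0 to 14 when each sample was left out. With the length trend removed and 1 sample left out as well, 25 were called without DMSO sample 1 (27.5% of all genes), 3 without DMSO sample 3 (6.93% of all genes), and 1 without any other, which was CCND3. The interaction called 0, but 34 averaged by second number (63.4% of all genes) and 1 each, CCND3, with scaling and with the length trend removed. Over all genes, the MOLM-13 count of 14 became 4 with no filter, 5437 averaged by second number, 177 with the length trend removed, 48 with scaling and 2 to 8 when each sample was left out. The MONO-MAC-6 count of 433 became 254, 8701, 277 with library 1 alone, 1195 with the length trend removed and 59 to 3202 when each sample was left out. The cause of these moves was not tested.

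With a replicate block, 0 of the 47 genes were called in MONO-MAC-6 (CCND3 at a limma adjusted p of 0.130 and TYMS at 0.150) and 0 in MOLM-13, with 102 and 87 of all genes. The samples share only a number: the deviations of equally numbered A9 and DMSO samples correlated by 0.361, -0.0772 and 0.676 in MOLM-13 and by -0.0274, 0.0876 and -0.0908 in MONO-MAC-6. Not every sample correlated best with its own number.

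Some small changes turned direction. In MOLM-13, PCNA (0.0079) was -0.0082 with the length trend removed and ran from -0.032 to 0.044 when each sample was left out. RRM2 (-0.056) was 0.013 with the trend removed and ran from -0.28 to 0.22, and MKI67 (-0.18) ran from -0.44 to 0.18. In MONO-MAC-6, MCM2 (0.044) was -0.12 with scaling and -0.19 with the trend removed, and ran from -0.071 to 0.14. E2F1 (0.021) was -0.026 with library 1 alone, -0.14 with scaling and -0.15 with the trend removed, and ran from -0.012 to 0.052. RRM2 (0.15) was -0.0071 with scaling and -0.029 with the trend removed, and ran from -0.020 to 0.33, and CCNE1 (-0.062) ran from -0.21 to 0.026. CCND3 and TYMS stayed below 0 in both lines under the 9 alternatives with all samples and the 6 that each left 1 out. Over the 9 alternatives with all samples, the MONO-MAC-6 adjusted p of CCND3 ran from 5.17e-08 to 0.130 and passed in 7, and that of TYMS from 6.20e-07 to 0.150 and passed in 4.

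Depth is unknown from TPM, 3 samples per group limit the precision. Genes with several transcripts, such as AURKB, whose main transcript held 30.5% of its TPM, depend on how reads were shared among them.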
